A study of Mus musculus with 14 samples.

Results

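The transcripts of the mouse mitochondrial genome were followed here across 6 groups of blood-forming cells in which the gene Prmt5, which encodes an arginine methyltransferase, was deleted or intact. Members were all rows of the gene tables whose symbol begins with mt-. They numbered 37 of 45706 genes: 13 protein genes, 2 ribosomal RNAs (mt-Rnr1 and mt-Rnr2) and 22 transfer RNAs.

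In the study, Ter119neg and Ter119pos cells (without and with the erythroid surface marker Ter119) were sorted from E14.5 fetal liver of Vav-cre;PRMT5fl/fl embryos (KO) and PRMT5fl/fl embryos (WT), with 2 libraries per group. LK cells, a sorted progenitor population, came from Mx1-cre;PRMT5fl/fl mice (KO) and PRMT5fl/fl mice (WT), with 3 libraries per group, and both LK groups were collected 7 days after poly(I:C), the agent that switches on Mx1-cre and also evokes an interferon response. Vav-cre acts across blood cells, so in the fetal liver the gene is lost before birth, whereas Mx1-cre is induced after birth. KO mice 1 and 2 and WT mouse 4 each gave both fetal fractions, WT mice 3 and 5 gave 1 fraction each, and the LK libraries carry the letters A, B and C without a stated animal. Ages of the LK mice were not given in the labels.

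The 2 fetal fractions were prepared from Trizol RNA with Ribo-Zero removal of ribosomal RNA, and the LK libraries from a column kit, with no ribosomal RNA removal named in the labels. Tests were therefore made only within the fetal liver libraries or within the LK libraries, and values of both are set side by side as descriptions. Total counts were between 19514550 and 30976961 per library. Prmt5 itself, in CPM (counts divided by the library's total and put on a common scale, here after TMM scaling, which evens out the middle of the gene distribution), was at 10.5 to 12.3 in LK KO and 63.1 to 110 in LK WT, at 4.26 to 4.51 in Ter119neg KO and 51.8 to 52.3 in Ter119neg WT, and at 3.64 to 4.92 in Ter119pos KO and 13.8 to 17.7 in Ter119pos WT, so every KO library lay below every WT library of its population. Summed over 8 erythroid markers (the glycophorin, band 3, globin and haem synthesis genes among them), Ter119pos libraries held 93515 to 102658 CPM of all counts in KO and 152574 to 161562 CPM in WT, and Ter119neg libraries 1149 to 1492 CPM in KO and 959 to 1166 CPM in WT. The LK libraries of letter B stood apart: nuclear 18S ribosomal RNA took 23.4% of counts in KO B and 18.04% in WT B, against at most 0.179% in the other LK libraries. The progenitor genes Kit, Cd34, Gata2 and Myb summed to 876 to 1831 CPM in LK KO and 679 to 1386 CPM in LK WT, and the liver genes Alb and Ttr were at 0 in all LK libraries.

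Mitochondrial DNA is a small circle that is transcribed from both strands into long precursors. Most protein genes, both ribosomal RNAs and most transfer RNAs are read from the heavy strand promoter, and mt-Nd6 with a few transfer RNAs from the light strand promoter. Transfer RNAs lie between the other genes and are cut out by RNase P and Elac2, which frees the messenger and ribosomal RNAs, and the freed messengers are then polyadenylated and stabilised at different rates, with the LRPPRC and SLIRP proteins protecting many of them. The protein genes all encode membrane subunits of the respiratory chain and ATP synthase, whose other subunits come from the nucleus. In red cell formation, mitochondria supply haem synthesis and are later removed by mitophagy.

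A stretch of nuclear chromosome 1 holds near-identical copies of part of this genome, and it decides how far single genes can be read. In GRCm38, 7 annotated pseudogenes on the minus strand between positions 24611535 and 24616197 matched 7 mitochondrial protein genes at 99.71 to 100% identity. Gm10925 matched mt-Atp6 over all 678 compared bases with no mismatch, as the opening 60 bases of both show in the lines below.

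mt-Atp6 (chrMT:7927-7986, plus strand): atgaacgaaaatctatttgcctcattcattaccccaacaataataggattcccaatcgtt
Gm10925 (chr1:24614592-24614651, minus strand): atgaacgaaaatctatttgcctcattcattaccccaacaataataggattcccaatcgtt

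Gm28438 differed from mt-Nd3 at 1 of 345 bases, T3C counted from the 5′ end of the gene. The lines below print the first 33 bases, with the differing base in capitals, because it is the only base that differs in the compared stretch.

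mt-Nd3 (chrMT:9459-9491, plus strand): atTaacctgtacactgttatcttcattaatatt
Gm28438 (chr1:24613087-24613119, minus strand): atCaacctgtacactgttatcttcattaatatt

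Gm28661 (mt-Co2), Gm28437 (mt-Co3), Gm10222 (mt-Nd4l) and Gm28439 (the first 876 bases of mt-Nd4) matched without a mismatch over the aligned bases, and Gm29216 matched the last 483 bases of mt-Co1 with 1 mismatch. RSEM, which shares reads among the places they fit, put between 0 and 78.9% of the counts of a pair on the nuclear copy. For mt-Co2 the copy held 57.9 to 78.9% of the pair in the 14 libraries, and for mt-Nd4 0.240 to 8.23%. For mt-Nd1, mt-Nd2, mt-Atp8, mt-Nd5, mt-Nd6, mt-Cytb and both ribosomal RNAs, no annotated nuclear gene matched at 99% identity or more over at least 100 aligned bases. Stretches without annotation were not searched. The 43 bases that mt-Atp8 shares with mt-Atp6 are present in Gm10925 as well. A further 9 less similar copies (90.7 to 97.6% identical) held at most 59.1 counts in any library. Values are given as deposited, and those of mt-Co1, mt-Co2, mt-Atp6, mt-Co3, mt-Nd3, mt-Nd4l and mt-Nd4 are uncertain for this reason. Where adding the copy's counts to the gene changed a call, the changed value stands beside it.

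**Figure D1:**
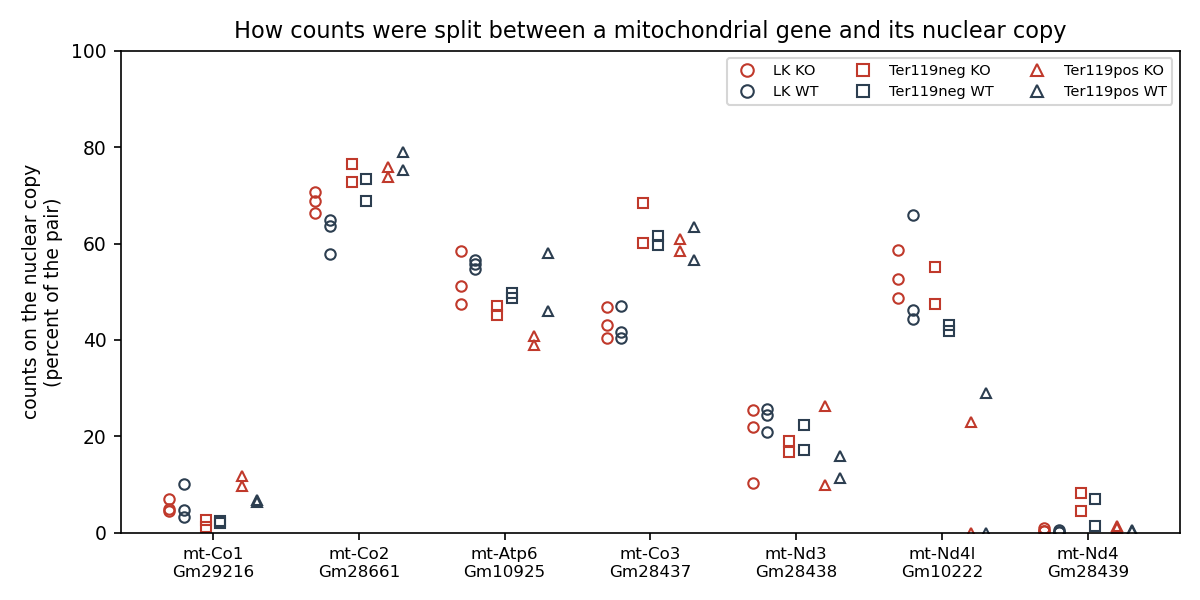
Percent of the summed counts of a mitochondrial gene and its chromosome 1 copy that were assigned to the copy (vertical axis), for 7 gene pairs (horizontal axis); each symbol is 1 library, red for KO and dark blue for WT, circles for LK, squares for Ter119neg and triangles for Ter119pos. mt-Co2 lies between 57.9 and 78.9% and mt-Nd4 at or below 8.23%.

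By class, the fetal liver libraries were dominated by the ribosomal RNAs, and the LK libraries of letters A and C by the messengers. The 2 ribosomal RNAs, which form the small and large subunits of the mitochondrial ribosome, took 13.5% and 15.6% of all counts in Ter119neg KO and 12.96% and 14.7% in Ter119neg WT. In the Ter119pos libraries they took 11.3% and 13.9% in KO and 12.3% and 13.3% in WT. KO and WT ranges overlapped in both fractions. In LK cells the ribosomal RNAs took 0.0126%, 3.23% and 0.0207% in KO (A, B, C) and 0.0196%, 1.49% and 0.0312% in WT. The LK libraries of letter B, which also kept nuclear 18S RNA, thus lay far above the other 4 in both genotypes.

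The 13 protein genes together took a smaller share of all counts in the KO than in the WT libraries of each population, and in Ter119pos this depended on the denominator. Their share of all counts was 1.43%, 0.982% and 1.59% in LK KO (A, B, C), against 1.95%, 1.73% and 2.18% in LK WT. It was 0.976% and 0.861% in Ter119neg KO, against 1.16% and 1.13% in Ter119neg WT, and 0.550% and 0.598% in Ter119pos KO, against 0.738% and 0.914% in Ter119pos WT. No KO library overlapped the WT libraries of its own population. These shares describe the libraries and carry no p: with 3 libraries per group an exact two-sided permutation test cannot go below 0.10, and with 2 per group not below 0.333. Any other abundant RNA lowers such a share, and the small structural RNAs (7SL, 7SK and the RNA parts of RNase P and RNase MRP) took 35.9% and 34.6% of counts in Ter119pos KO, against 6.08% and 6.20% in Ter119pos WT, while they took 27.6% and 31.4% in Ter119neg KO and 16.7% and 23.3% in Ter119neg WT. Of the counts outside these RNAs, the protein genes held 0.858% and 0.914% in Ter119pos KO and 0.786% and 0.974% in Ter119pos WT, so the groups overlapped, and 1.35% and 1.26% in Ter119neg KO and 1.39% and 1.48% in Ter119neg WT, without overlap. Globin genes took 16.4% and 18.3% of counts in Ter119pos KO and 25.1% and 24.6% in Ter119pos WT.

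The ratio of ribosomal RNA to messenger counts does not depend on how a library is scaled. It was 20.6 and 23.2 in Ter119pos KO, against 16.7 and 14.6 in Ter119pos WT, and 13.8 and 18.1 in Ter119neg KO, against 11.2 and 12.998 in Ter119neg WT. KO libraries lay above WT libraries in both fractions. In LK cells the ratio was 0.00881 and 0.0130 in KO A and C and 0.0101 and 0.0143 in WT A and C, and 3.29 in KO B against 0.862 in WT B. The large and the small ribosomal RNA, cut from the same precursor, were also present in changed proportion: mt-Rnr2 held 8.43 and 7.16 counts per count of mt-Rnr1 in Ter119pos KO, against 13.5 and 14.53 in Ter119pos WT. In Ter119neg this ratio was 6.19 and 5.61 in KO and 5.63 and 8.79 in WT, where the groups overlapped. Whether the Ribo-Zero probes include these 2 RNAs is not given in the sources used here, and the part of ribosomal RNA removal in the ratios was not tested.

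**Figure D2:**
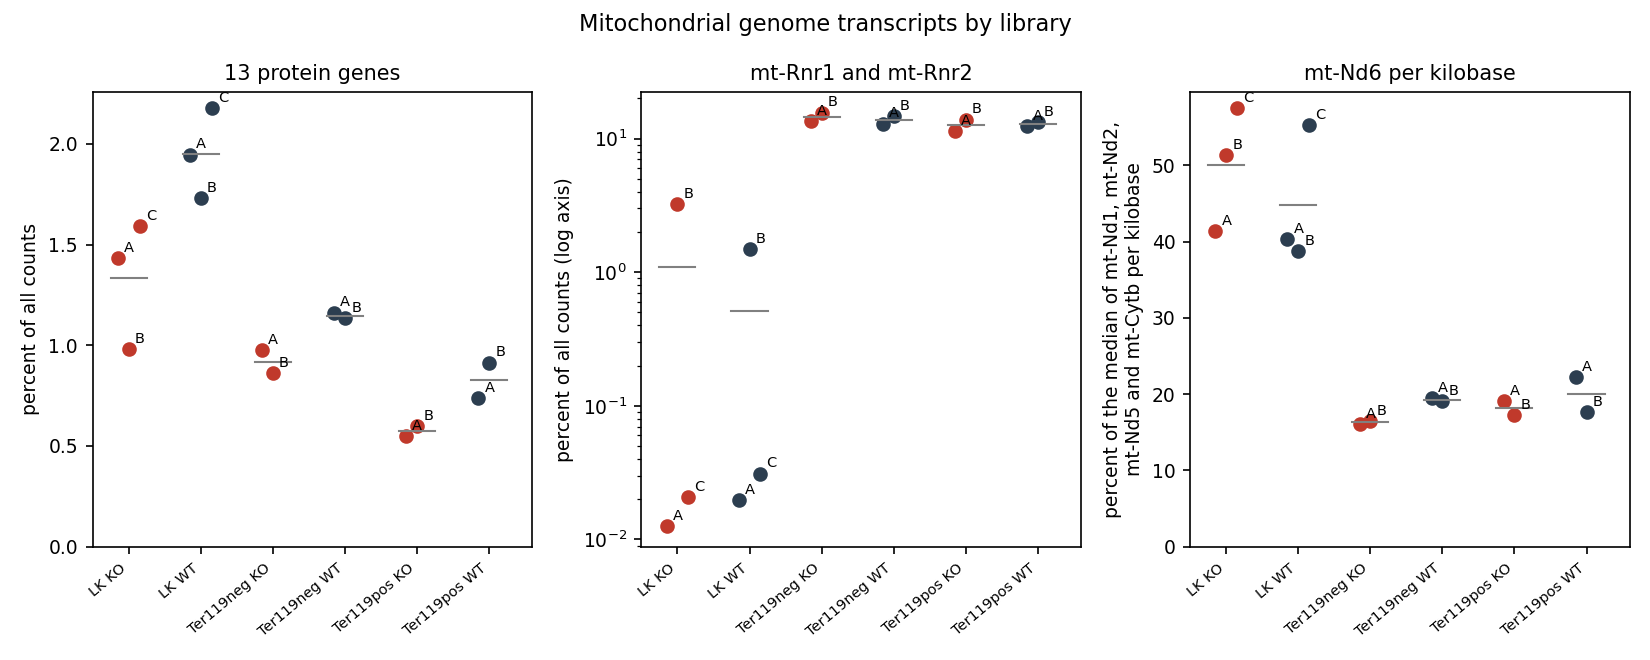
Mitochondrial transcripts in each of the 14 libraries: the share of all counts on the 13 protein genes (left), the share on both ribosomal RNAs (middle, log axis) and mt-Nd6 per kilobase relative to the median of mt-Nd1, mt-Nd2, mt-Nd5 and mt-Cytb per kilobase (right). Points are libraries with their letter (red KO, dark blue WT) and grey bars are group means; each KO group lies below its WT group in the left panel, and LK B stands apart in the middle panel.

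Within the protein genes, the mix of messengers in Ter119pos KO differed from that in Ter119pos WT, and this too is free of library scaling. mt-Co1, the catalytic core subunit of cytochrome c oxidase (complex IV; chrM 5328 to 6872), made up 40.8% and 39.0% of protein gene counts in Ter119pos KO, against 60.5% and 56.6% in Ter119pos WT. In the other 4 groups its share was 24.9 to 41.3%, so the Ter119pos WT libraries were the ones that stood out. The complement lay mostly in 2 genes that sit side by side downstream. mt-Co3, another core subunit of complex IV (8607 to 9390), held 18.2% and 18.9% in Ter119pos KO, against 9.20% and 10.7% in WT. mt-Atp6, the proton channel subunit of ATP synthase (7927 to 8607), held 10.1% and 11.1% in Ter119pos KO, against 4.08% and 5.34% in WT. With the nuclear copies added, mt-Co1 was 29.9% and 27.6% in Ter119pos KO against 46.4% and 44.7% in WT, mt-Co3 28.9% and 30.2% against 18.01% and 18.2%, and mt-Atp6 10.9% and 11.7% against 6.96% and 7.32%, so the groups stayed apart in the same direction.

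In Ter119neg, mt-Co1 held 38.8% and 37.2% in KO and 40.5% and 38.5% in WT, with overlapping ranges. mt-Atp6 held 8.68% and 8.21% in Ter119neg KO and 5.83% and 6.42% in WT, and mt-Atp8, a small ATP synthase subunit, 2.61% and 2.41% in KO and 1.68% and 2.04% in WT, without overlap in either gene. mt-Nd1, a core subunit of NADH dehydrogenase (complex I), held 8.77% and 7.96% in KO and 10.1% and 10.4% in WT. In LK cells the mix followed the letter as well as the genotype: mt-Co1 was 41.3%, 29.2% and 38.0% in KO (A, B, C) and 40.4%, 24.9% and 37.4% in WT, lowest in letter B of both groups.

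Per kilobase, which allows levels to be compared between genes, mt-Co1 was the highest of the 13 in 13 of 14 libraries as deposited, and mt-Co3 in 1. With the copies added, mt-Co3 led in 9 libraries and mt-Co1 in 5. The rank at the top therefore rests on how reads were shared with chromosome 1. At the other end, mt-Nd4l, a small complex I subunit, held 0.602 to 1.70% of the per-kilobase total as deposited and mt-Nd6 0.620 to 3.24%. With the copies added, mt-Nd4l held 0.410 to 2.61% and mt-Nd6 0.361 to 2.41%, and mt-Nd4l was not the lowest gene in any library.

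**Figure D3:**
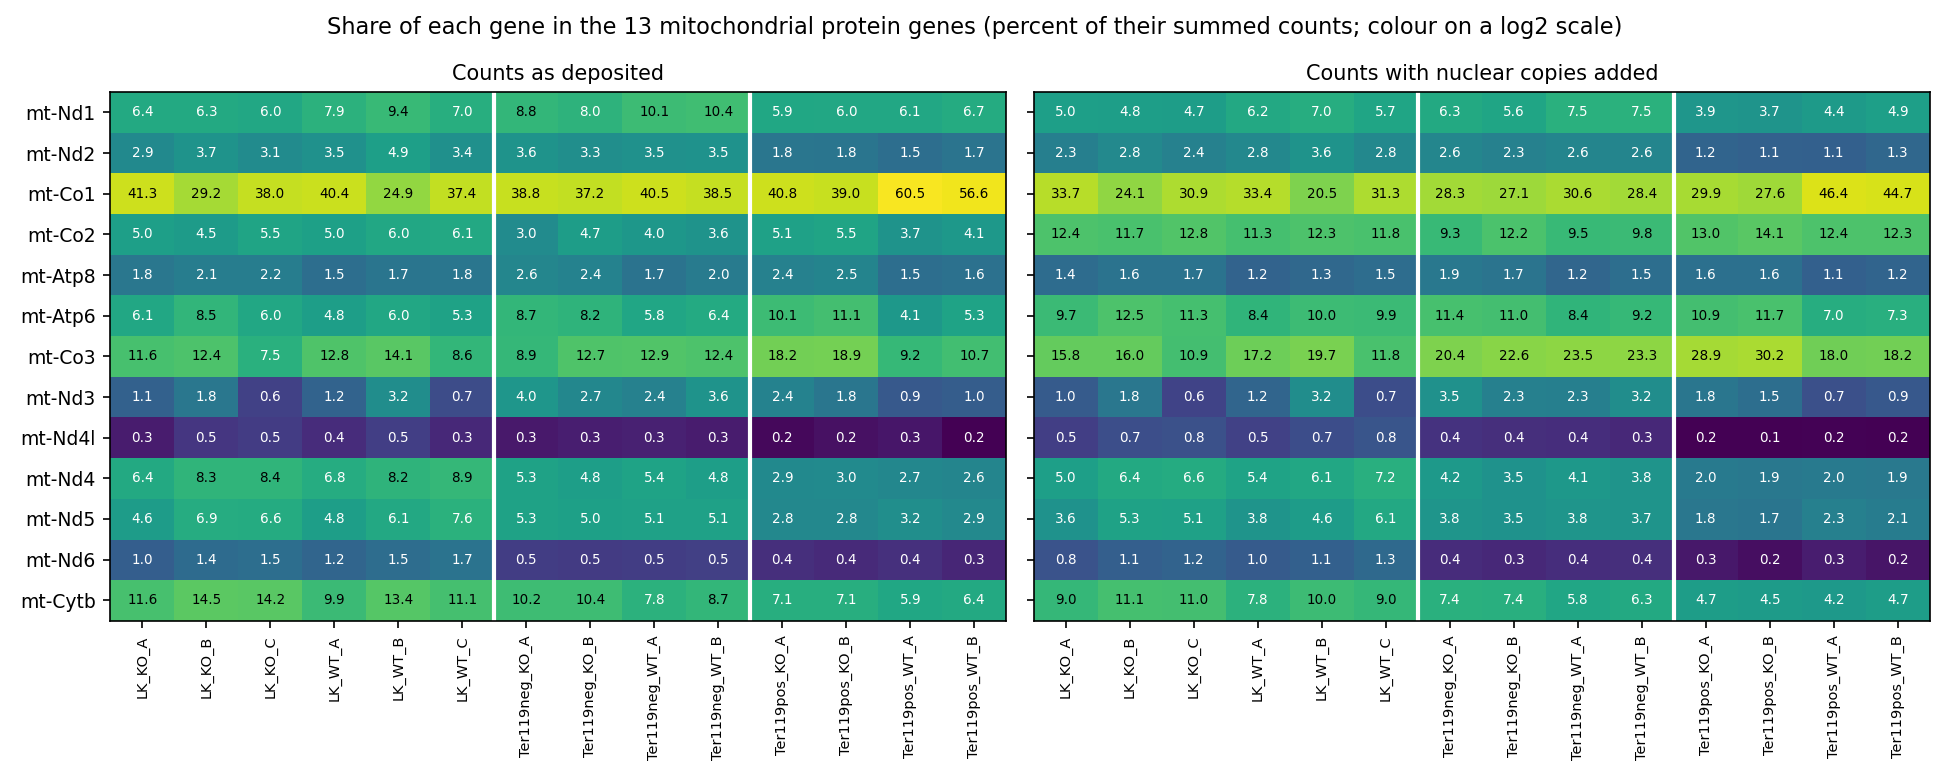
Percent of the summed counts of the 13 mitochondrial protein genes held by each gene (rows, in genome order) in each library (columns, KO left of WT within each population), as deposited (left) and with the chromosome 1 copies added (right); colour is on a log2 scale. In Ter119pos, mt-Co1 is lower and mt-Co3 and mt-Atp6 are higher in both KO libraries than in both WT libraries in either panel.

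In Ter119pos cells, mt-Atp6, mt-Nd3 and the small ribosomal RNA were higher in KO on either scaling tried, mt-Co1 was not, mt-Co3 and mt-Atp8 were called higher by TMM but not on total counts, and the sign of mt-Nd1, mt-Nd2, mt-Nd4, mt-Nd4l, mt-Nd5, mt-Nd6, mt-Co2 and mt-Cytb turned with the scaling. With TMM scaling, which sets the middle of the gene distribution equal between libraries, 12 of the 17 members that passed the low count filter were called higher in KO and 0 lower (edgeR quasi-likelihood test, Benjamini-Hochberg adjusted p under 0.05 over all genes), in a comparison where 54.2% of 15566 genes were called, 3864 higher and 4566 lower. The 12 were 9 protein genes, both ribosomal RNAs and mt-Tm. The median log2 fold change of the 13 protein genes was 0.55, beside −0.04 over all genes tested. Scaled on total counts instead, 4 members were called higher (mt-Atp6, mt-Nd3, mt-Rnr1 and mt-Tm) and 5 lower (mt-Co1, mt-Nd1, mt-Nd4l, mt-Nd5 and mt-Nd6), where 62.7% of genes were called, 1358 higher and 8400 lower. On that scale the median over all genes was −0.93 and that of the protein genes −0.36. Both scales thus place the protein genes above the middle of the genes, and they differ in where 0 lies.

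mt-Atp6 had 1152 and 1624 TMM-scaled CPM in Ter119pos KO, against 381 and 571 CPM in Ter119pos WT. Both KO libraries were above both WT libraries, and the change on the log2 scale was 1.54 (SE 0.22; edgeR adjusted p = 7.2e-05) by TMM and 0.63 (SE 0.22, edgeR adjusted p = 0.0142) on total counts. mt-Nd3, a small complex I subunit, had 276 and 260 CPM in KO, against 86.1 and 108 CPM in WT. Its change on the log2 scale was 1.47 (SE 0.23; edgeR adjusted p = 0.000183) by TMM and 0.58 on total counts (edgeR adjusted p = 0.0390). mt-Co3 had 2074 and 2767 CPM in KO, against 858 and 1139 CPM in WT, and its change on the log2 scale was 1.28 (SE 0.23, edgeR adjusted p = 0.000414). On total counts mt-Co3 was at 0.36 and did not pass the test (edgeR adjusted p = 0.129).

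mt-Co1 ran the other way. It had 4653 and 5721 CPM in Ter119pos KO, against 5646 and 6050 CPM in Ter119pos WT, so the groups overlapped by TMM and the log2 fold change was −0.17 (edgeR adjusted p = 0.445). As a share of all counts it was at 2242 and 2335 CPM in KO, against 4468 and 5171 CPM in WT, and fell by 1.07 on the log2 scale (SE 0.19, edgeR adjusted p = 2.15e-05). Among the complex I genes, mt-Nd2 (0.51), mt-Nd4 (0.55) and mt-Nd6 (0.41) were called higher by TMM, while mt-Nd1 (0.28) and mt-Nd5 (0.25) did not pass, with adjusted p of 0.204 and 0.175 by edgeR, and mt-Nd4l (0.44, edgeR adjusted p = 0.0587) passed with its nuclear copy added (0.37, edgeR adjusted p = 0.0123). mt-Cytb, the membrane core of complex III, was called higher at 0.59 (edgeR adjusted p = 0.0152), and mt-Co2 and mt-Atp8 at 0.83 and 1.04.

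The calls in Ter119pos rest on few libraries. Without KO library B, mt-Co2, mt-Cytb, mt-Nd2, mt-Nd4, mt-Nd6 and mt-Rnr2 were not called. Without WT library A, mt-Co2, mt-Cytb, mt-Nd2, mt-Nd4 and mt-Rnr2 were not called and mt-Nd4l was. Without WT library B, mt-Nd6, mt-Rnr2 and mt-Tm were not called. Each of these fits leaves 1 library in a group, and fewer of all genes were called in them as well. Removing a trend of fold change on transcript length from each library left 3 members higher (mt-Atp6 0.88, mt-Co3 0.69 and mt-Rnr1 1.19) and 5 lower (mt-Co1 −0.47, mt-Atp8 −0.77, mt-Nd6 −0.42, mt-Nd4l −1.01 and mt-Ts1 −2.53), with 52.3% of all genes called. mt-Atp6 and mt-Rnr1 were called higher under TMM, total counts and length correction alike. Across the Ter119pos libraries, 7SL, 7SK and related RNAs and the globin genes differed between the genotypes as given above. Scaling without the structural RNAs left the same 12 calls, and without globin genes 13. Leaving out the structural RNAs hardly moved the TMM scaling itself, with 8431 of all genes called against 8430 and a median of −0.04 in both. The part of these RNAs in the calls was not tested. As shares of all counts, granulocyte and monocyte markers summed to 13.5 to 32.6 CPM in Ter119pos KO and 78.4 to 143 CPM in Ter119pos WT. Macrophage markers summed to 15.1 to 15.7 CPM in KO and 27.4 to 47.9 CPM in WT. Progenitor markers summed to 12.8 to 13.4 CPM in KO and 16.9 to 22.03 CPM in WT. On that scale the median over all genes was −0.93. By TMM-scaled level, Kit was higher in both KO libraries. Cd34, Gata2, Myb, Csf1r, C1qa, C1qb, C1qc, Prtn3, Camp, S100a8 and S100a9 overlapped between the genotypes. The other members of these lists were lower in KO without overlap. The part of these markers in the mitochondrial values was not tested. In bulk samples, fewer cells of a type and less RNA per cell cannot be told apart.

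mt-Rnr1 was the member with the largest called rise among protein and ribosomal RNA genes by TMM. It had 24943 and 41699 CPM in Ter119pos KO, against 10753 and 10038 CPM in Ter119pos WT, and its change on the log2 scale was 1.68 (SE 0.29, edgeR adjusted p = 0.000314), and 0.76 on total counts (edgeR adjusted p = 0.00186). mt-Rnr2 had 210221 and 298563 CPM in KO, against 145090 and 145806 CPM in WT, and its change on the log2 scale was 0.81 (SE 0.31, edgeR adjusted p = 0.0444). On total counts mt-Rnr2 was at −0.10 and did not pass (edgeR adjusted p = 0.646).

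**Figure D4:**
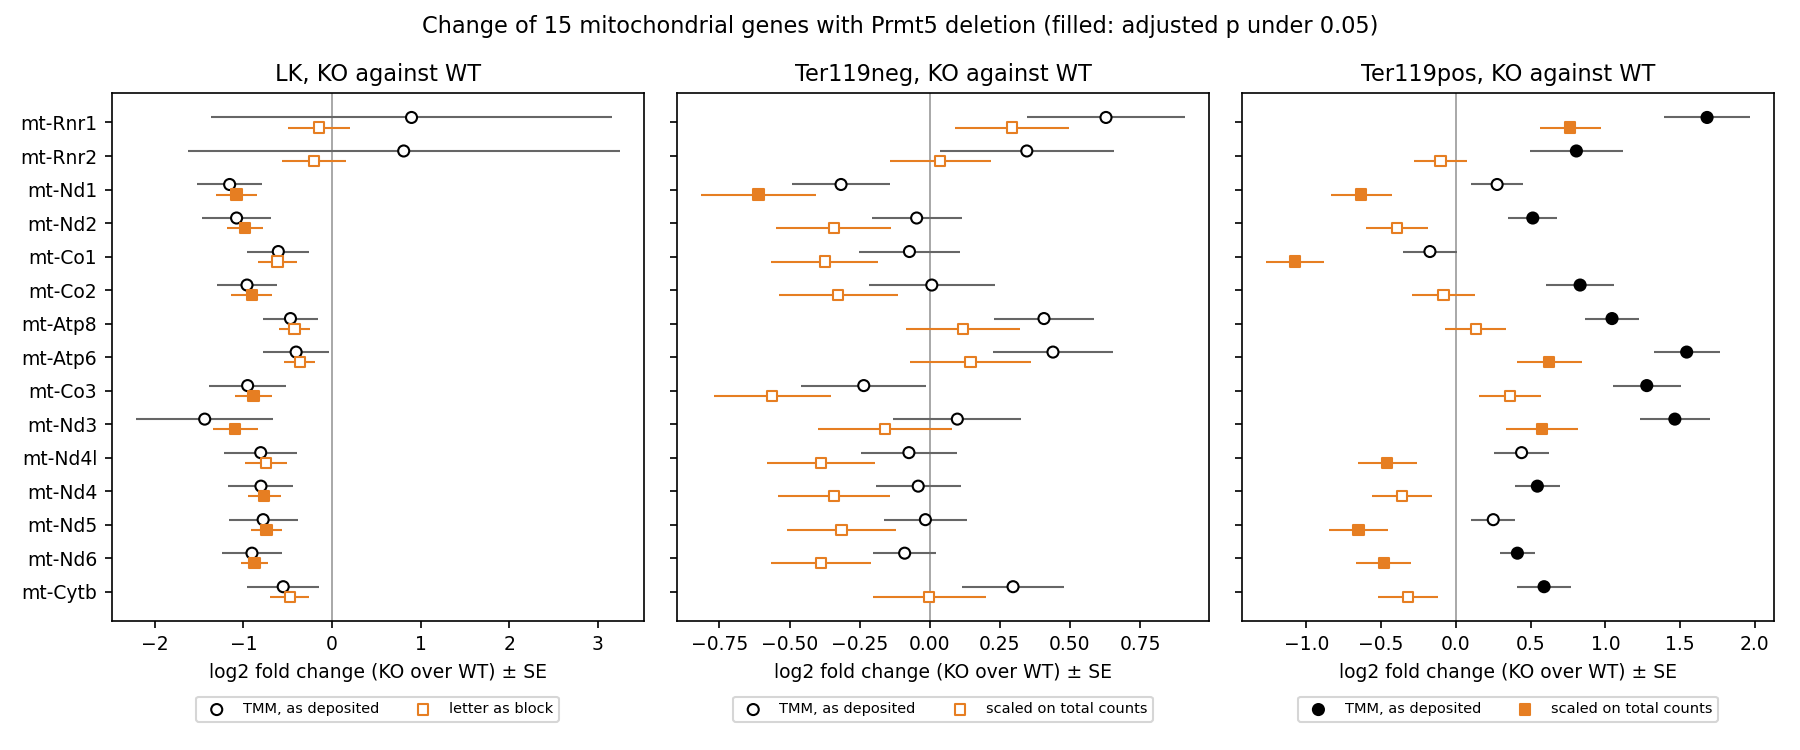
Log2 fold change of KO over WT ± SE for the 13 protein genes and 2 ribosomal RNAs (rows, genome order) in LK, Ter119neg and Ter119pos cells; circles are TMM-scaled, squares are the letter-blocked model for LK and total-count scaling for the fetal fractions, and filled symbols have an edgeR adjusted p under 0.05. In Ter119pos, mt-Atp6 and mt-Nd3 are right of 0 on both scales and mt-Co1 is left of 0 on both.

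In Ter119neg cells no member was called (0 of 17 by edgeR, against 19.1% of 15566 genes, with 3 members at an unadjusted p under 0.05 and 1 call, mt-Rnr1, by DESeq2). The median log2 fold change of the protein genes was −0.04, beside 0.01 over all genes, and 5 of the 13 did not overlap between genotypes by TMM-scaled level, where 62.6% of all genes tested did not. As a share of all counts, 9 of the 13 did not overlap, where 61.8% of all genes did not. mt-Atp6 had 522 and 519 CPM in KO, against 345 and 422 CPM in WT, at 0.44 (SE 0.22, edgeR adjusted p = 0.181). mt-Nd1 had 527 and 504 CPM in KO, against 598 and 686 CPM in WT, at −0.32 (edgeR adjusted p = 0.236), and on total counts it was the single member called, at −0.61 (edgeR adjusted p = 0.0318). Markers of other cells were summed as shares of all counts, a scale on which the median over all genes was −0.3 in this fraction. The 7 macrophage markers summed to 36.7 to 49.998 CPM in KO, against 207 to 225 CPM in WT. The 8 granulocyte and monocyte markers summed to 1542 to 1813 CPM in KO, against 3063 to 3370 CPM in WT, with every marker of both lists detected. Hepatoblast markers summed to 165 to 399 CPM in KO and 454 to 831 CPM in WT, progenitor markers to 361 to 470 CPM in KO and 519 to 626 CPM in WT, megakaryocyte markers to 36.6 to 51.7 CPM in KO and 56.2 to 74.6 CPM in WT, and lymphoid markers, of which Cd3e was at 0, to 1.61 to 2.10 CPM in KO and 6.23 to 6.86 CPM in WT. Single members did not all follow these sums. By TMM-scaled level, Kit, Myb, Pf4, Elane, Camp, S100a9 and Apoa1 overlapped between the genotypes. Gp9 was higher in KO (3.08 and 2.98 CPM, against 2.59 and 1.98 CPM in WT). The part of these markers in the mitochondrial values was not tested.

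The genotype effect was larger in Ter119pos than in Ter119neg cells for 5 protein genes by TMM. The test of the difference itself called mt-Co3 (1.51, SE 0.32, edgeR adjusted p = 0.00239), mt-Nd3 (1.37), mt-Atp6 (1.10), mt-Nd4 (0.59) and mt-Nd6 (0.50), all more positive in Ter119pos, where 41.7% of all genes were called. With the nuclear copies added, mt-Nd4 was not called (0.56, edgeR adjusted p = 0.0550) and mt-Rnr1 was (1.05, edgeR adjusted p = 0.0487). With the mouse as a block, since 3 mice gave both fractions, 11 members were called, with 40.2% of all genes called. The added ones were mt-Atp8, mt-Co2, mt-Nd1, mt-Nd2, mt-Nd4l and mt-Rnr1. Only 1 of the 3 mice was WT, so the WT side of the blocked fit rests on that mouse. The blocked calls are therefore not backed by replicate WT mice. On total counts 2 members were called, mt-Co3 (0.93, edgeR adjusted p = 0.0125) and mt-Co1 (−0.70, edgeR adjusted p = 0.0384), with 41.6% of all genes called. mt-Co3 was the only member called under TMM, total counts and length correction alike. Leaving out single libraries, which leaves 1 in a group, moved the calls. Without Ter119pos KO B, mt-Atp6, mt-Nd4 and mt-Nd6 were lost, and without Ter119pos WT A, mt-Atp6 and mt-Nd4. Without Ter119pos WT B, mt-Nd4 and mt-Nd6 were lost, and mt-Co2, mt-Nd1 and mt-Nd2 were called. Without Ter119pos KO A, Ter119neg KO B or Ter119neg WT A, further members were called. Fewer of all genes were called in each of these fits.

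Between fractions, the direction of most members depended on the scale. In WT embryos, Ter119pos against Ter119neg cells had 5 calls by TMM, among 76.3% of all genes. mt-Co1 had 5646 and 6050 CPM in Ter119pos WT, against 2393 and 2530 CPM in Ter119neg WT, and rose by 1.25 on the log2 scale (SE 0.18, edgeR adjusted p = 4.87e-05). mt-Co2 (0.72) and mt-Rnr2 (1.13) were higher as well. In mouse 4, the only WT mouse that gave both fractions, mt-Rnr2 differed by 0.93, and 1 mouse gives no test. mt-Nd3 fell by 0.97 (edgeR adjusted p = 0.00213) and mt-Nd2 by 0.45. mt-Nd4l was at 0.21 as deposited (edgeR adjusted p = 0.285) and was called lower with its copy added (−0.35, edgeR adjusted p = 0.0089). On total counts, 12 members were called and all 12 were lower in Ter119pos, among 81.6% of genes called, 2584 higher and 10122 lower, with a median over all genes of −1.35; mt-Co1 stood at 0.09 and mt-Rnr2 at −0.02, and neither passed.

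In KO embryos, Ter119pos against Ter119neg cells had 11 members called, all higher by TMM, among 62.6% of all genes. mt-Co3 had 2074 and 2767 CPM in Ter119pos KO, against 537 and 804 CPM in Ter119neg KO, and rose by 1.85 (SE 0.23, edgeR adjusted p = 1.74e-05). mt-Nd2, at 0.11, and mt-Nd5, at 0.19, were among the protein genes that did not pass. mt-Nd4l was called higher as deposited (0.73, edgeR adjusted p = 0.00342) and not with its copy added (−0.15, edgeR adjusted p = 0.246). On total counts 12 members were called, all lower, among 84.7% of genes, 921 higher and 12266 lower, with a median over all genes of −1.86, and mt-Co3 stood at 0.11 without passing. The KO and WT fraction comparisons use different libraries, and the difference between them is the interaction given above.

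In LK cells, all 13 protein genes had a lower mean level in KO, but none was called by the test without pairing. The median log2 fold change was −0.80, beside −0.09 over all genes tested, and 0 of 15 members passed where 1.82% of 13771 genes did. At an unadjusted p under 0.05 there were 4 members, and DESeq2 called 1, mt-Nd1. Libraries of the same letter deviated together across genotypes (correlations of 0.604, 0.719 and 0.730 over genes for A, B and C), and with the letter as a block 8 protein genes were called lower and none higher, where 22.7% of all genes were called. The 8 were mt-Nd1, mt-Nd2, mt-Nd3, mt-Nd4, mt-Nd5 and mt-Nd6 of complex I and mt-Co2 and mt-Co3 of complex IV. With the nuclear copies added under the same block, mt-Co2 was not called (−0.64, edgeR adjusted p = 0.0963, against −0.90 and 0.0329 as deposited) and mt-Nd4l was (−0.74, edgeR adjusted p = 0.0187).

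mt-Nd1 had 746, 814 and 774 CPM in LK KO (A, B, C), against 1284, 2571 and 1338 CPM in LK WT. Every KO library was below every WT library, and the log2 fold change was −1.15 (SE 0.37, edgeR adjusted p = 0.170) without and −1.08 (SE 0.23, edgeR adjusted p = 0.0197) with the block. mt-Nd6 had 119, 178 and 190 CPM in KO, against 198, 399 and 314 CPM in WT, at −0.90 without (edgeR adjusted p = 0.228) and −0.87 with the block (SE 0.16, edgeR adjusted p = 0.0111). mt-Co1 had 4821, 3786 and 4876 CPM in KO, against 6583, 6822 and 7106 CPM in WT, and stood at −0.61 with the block without passing (edgeR adjusted p = 0.0840). The libraries did not overlap for 7 of the 13 protein genes by TMM-scaled level, where 24.2% of all genes tested did not overlap, and for 5 as a share of all counts, where 14.4% did not.

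WT library B carried the highest TMM-scaled level of 12 of the 13 protein genes among the LK libraries, and it is one of the libraries with retained ribosomal RNA. Without both letter B libraries the median of the protein genes was −0.58 and no member was called by edgeR, with 2 protein genes at an unadjusted p under 0.05. mt-Atp6 (−0.36 with the block, edgeR adjusted p = 0.174) and mt-Atp8 (−0.42, edgeR adjusted p = 0.112) had the smallest differences of the 13. The ribosomal RNAs were at −0.15 for mt-Rnr1 and −0.20 for mt-Rnr2 with the block, and at 0.90 and 0.81 without it, with SE of 2.27 and 2.44. In LK cells, 8 granulocyte and monocyte markers summed to 7366 to 20187 CPM of all counts in KO, against 25623 to 52571 CPM in WT. All 8 were detected, with no marker at 0. Elane, Mpo and Prtn3 were lower in KO without overlap on this scale. Ngp, Camp, Ltf, S100a8 and S100a9 overlapped between the genotypes. S100a9, for example, was at 234, 122 and 2504 CPM in KO (A, B, C) and 260, 530 and 11048 CPM in WT. Within each letter, these overlapping genes were lower in KO. The part of the markers in the mitochondrial values was not tested.

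mt-Nd6, the single protein gene of the light strand, was read as a ratio to the other messengers, with LK and fetal libraries prepared apart and not tested against each other. It held 1.03, 1.39 and 1.502 counts per 100 counts of the other 12 in LK KO and 1.23, 1.48 and 1.68 in LK WT. In Ter119neg it held 0.521 and 0.493 in KO and 0.519 and 0.546 in WT, and in Ter119pos 0.392 and 0.356 in KO and 0.401 and 0.331 in WT. Without pairing, KO and WT overlapped in all 3 populations, and within each LK letter KO lay below WT. Per kilobase, against the median of 4 genes with no near-identical annotated copy (mt-Nd1, mt-Nd2, mt-Nd5 and mt-Cytb), mt-Nd6 was at 38.7 to 57.5% in LK and 16.1 to 22.3% in fetal libraries. On this measure the Ter119neg libraries did not overlap, with 16.1% and 16.5% in KO and 19.5% and 19.03% in WT, whereas the LK and the Ter119pos libraries did. Within each LK letter KO lay above WT here, with 41.4%, 51.3% and 57.5% in KO (A, B, C) and 40.3%, 38.7% and 55.3% in WT. The direction in LK thus turned with the measure. mt-Nd6 and mt-Nd5 end on opposite strands over 14 shared bases, printed in capitals in the lines below because a read there belongs to either gene unless strand was used in counting, which is not given in the sources used here; both kits keep strand, per the labels.

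mt-Nd5 3′ end (chrMT:13537-13565, plus strand): ttatcttatactcaaTTAATCTCGAGTAA
mt-Nd6 3′ end (chrMT:13552-13580, minus strand): ttattattatcgagaTTACTCGAGATTAA

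Overlap also limits the ATP synthase pair. mt-Atp8 and mt-Atp6 are read from 1 bicistronic messenger and share 43 bases, shown in capitals below, so their counts are not independent, and mt-Nd4l and mt-Nd4 share 7 bases in the same way.

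mt-Atp8 and mt-Atp6 overlap (chrMT:7912-7984, plus strand): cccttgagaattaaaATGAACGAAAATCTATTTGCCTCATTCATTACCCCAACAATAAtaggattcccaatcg

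The paired genes nonetheless had unequal values in Ter119pos: the log2 fold change of mt-Atp8 was 1.04 by TMM and 0.13 on total counts, and that of mt-Atp6 was 1.54 and 0.63.

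Transfer RNAs were almost absent from both preparations. All 22 had 0 counts in all 6 LK libraries, where 3 counts would correspond to 0.0968 to 0.154 CPM, and this limit covers counting error only. The 8 fetal libraries held 311 transfer RNA counts in all, on 13 of the 22 genes, and no gene exceeded 36 counts in a library. The genes are 59 to 75 bases long. All 8 transfer RNAs of the light strand had a count (201 counts together), against 5 of the 14 of the heavy strand (110 counts together). By library, transfer RNAs had 102 and 33 counts in Ter119neg KO, 38 and 47 in Ter119neg WT, 41 and 19 in Ter119pos KO and 13 and 18 in Ter119pos WT.

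mt-Tm, the methionine transfer RNA that lies directly before mt-Nd2, and mt-Ts1, a serine transfer RNA of the light strand whose gene overlaps the 3′ end of mt-Co1 on the opposite strand, were the 2 that passed the filter, and their genes are printed below as the transfer RNAs with values.

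mt-Tm (chrMT:3845-3913, plus strand): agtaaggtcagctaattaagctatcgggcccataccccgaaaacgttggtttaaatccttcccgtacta
mt-Ts1 (chrMT:6870-6938, minus strand): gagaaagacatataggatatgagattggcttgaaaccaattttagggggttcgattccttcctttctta

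mt-Tm had 24 and 5 counts in Ter119pos KO, against 2 and 0 in Ter119pos WT, and was called higher (edgeR adjusted p = 0.00899). It was not called without KO library A, nor without WT library B, nor with the Ter119pos libraries fitted alone, nor with the length trend removed, and no fold is given because 1 library is at 0. In Ter119neg, mt-Tm had 36 and 11 counts in KO, against 6 and 9 in WT, and did not pass (edgeR adjusted p = 0.0867). mt-Ts1 had 9 and 9 counts in Ter119pos KO, against 8 and 11 in Ter119pos WT, with overlapping groups.

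The nuclear genes that act with the mitochondrial genome were read from fixed lists in the same fits. In Ter119pos KO against WT, the 71 measured nuclear subunits of complexes I, III, IV and V were all called higher by TMM (71 of 71, median 1.27), beside the 54.2% of genes called in either direction. On total counts 31 of the 71 were higher and 4 lower, with a median of 0.37, and with the length trend removed 61 were higher and 0 lower, with a median of 0.88. The medians of the 13 mitochondrial protein genes under the same 3 settings were 0.55, −0.36 and 0.06. Complex II, which has no mitochondrially encoded subunit, had 3 of 4 genes higher by TMM (Sdhb 1.26, Sdhd 1.11 and Sdhc 0.73), and 0 higher and 1 lower on total counts. For complex IV, Cox4i1, a nuclear structural subunit, had 469 ± 20.7 CPM in Ter119pos KO and 143 ± 5.90 CPM in Ter119pos WT (SD, n = 2 each), and Ndufs8 of complex I had 61.8 ± 0.301 and 15.3 ± 1.45 CPM; both were called higher on total counts as well (0.82 and 1.12).

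In Ter119neg the same 71 genes had 3 called higher and 1 lower (median 0.09), where 19.1% of all genes were called and their median was 0.01, among them Ndufb8 (0.52) and Ndufc2 (0.42) higher and Ndufb10 (−0.44) lower. In LK cells 0 of 71 were called without pairing, where 1.82% of all genes were (median −0.65, against −0.09 over all genes; the mitochondrial protein genes were at −0.80), and the median was −0.39 on total counts and −0.25 with the length trend removed.

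**Figure D5:**
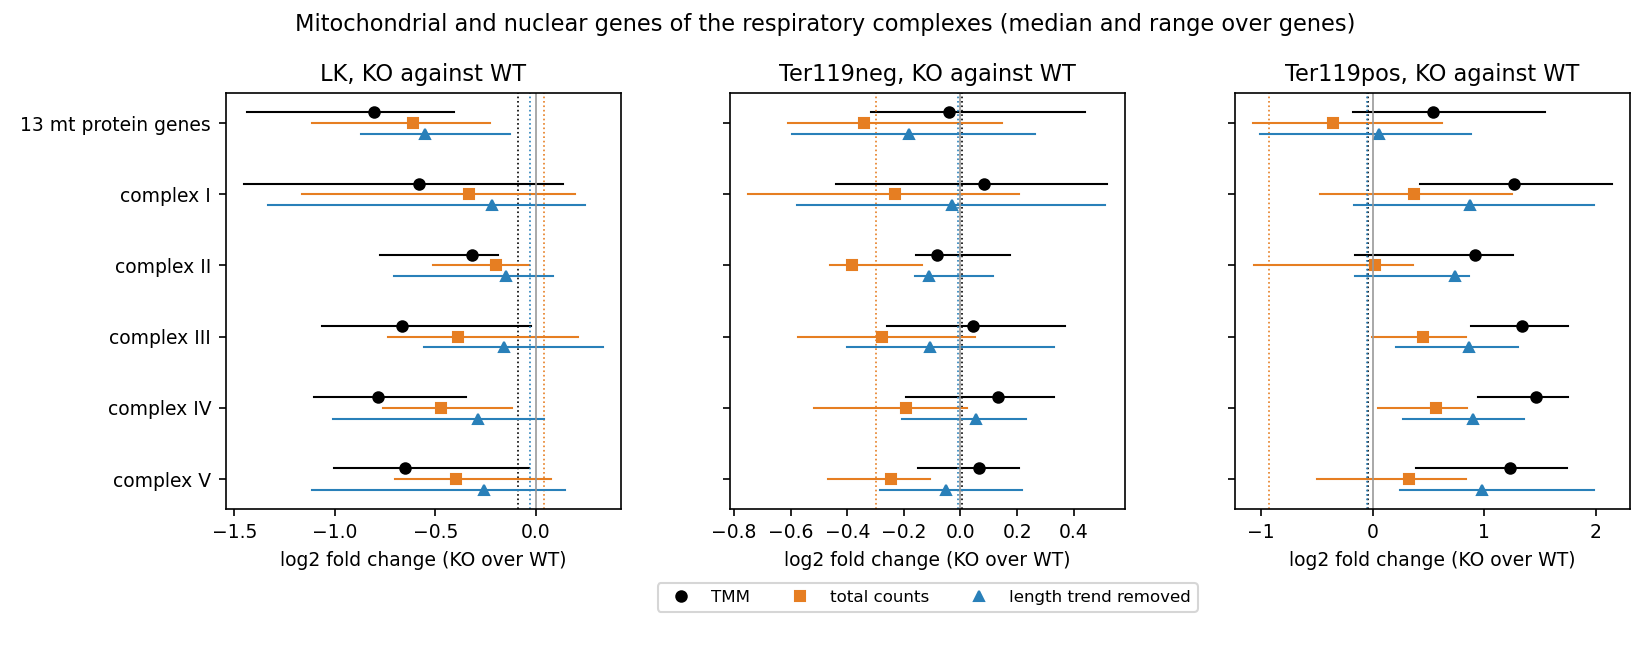
Median (symbol) and range (line) of log2 fold changes, KO over WT, for the 13 mitochondrial protein genes and the nuclear genes of complexes I to V, under TMM scaling (black), total-count scaling (orange) and with the length trend removed (blue); dotted lines are the medians of all genes under the same settings. In Ter119pos, the medians of complexes I, III, IV and V lie right of that of the mitochondrial genes under each setting.

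The other nuclear lists are set beside the same background in Ter119pos: 54.2% of all genes were called by TMM (3864 higher and 4566 lower, median −0.04) and 62.7% on total counts (1358 higher and 8400 lower, median −0.93). Of the genes that transcribe mitochondrial DNA, 4 of 9 were called higher and 1 lower by TMM (median 0.43), among them Tfb2m, a transcription initiation factor, with 15.3 ± 1.87 CPM in KO and 5.2 ± 0.636 CPM in WT (SD, n = 2 each; log2 fold change 1.55 by TMM and 0.66 on total counts, called on both). On total counts 1 was higher and 4 lower (median −0.46). Mterf1a, of the termination factor family, was called higher in Ter119neg (1.01, edgeR adjusted p = 0.00521) and, with the letter as a block, in LK cells (0.89, edgeR adjusted p = 0.0142).

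Of 21 genes of RNA processing and stability, 6 were higher and 3 lower in Ter119pos by TMM (median 0.16), and 0 higher and 14 lower on total counts (median −0.73). Lrpprc, whose protein stabilises mitochondrial messengers, had 53.6 ± 3.14 CPM in Ter119pos KO and 107 ± 1.59 CPM in Ter119pos WT (SD, n = 2 each), and fell by 1.00 by TMM and by 1.89 on total counts. Lrpprc was also lower in Ter119neg, with 58.0 ± 0.614 CPM in KO and 75.8 ± 4.57 CPM in WT (−0.39, edgeR adjusted p = 0.0227). Slirp, named with it above, had 27.7 and 40.5 TMM-scaled CPM in Ter119pos KO, against 14.6 and 15.9 CPM in Ter119pos WT. As a share of all counts, the KO and WT libraries overlapped for Slirp. Hsd17b10, a subunit of mitochondrial RNase P, was called higher in Ter119pos by TMM (1.23) and not on total counts (0.34, edgeR adjusted p = 0.190).

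Among 19 genes that modify ribosomal and transfer RNA, 4 were higher and 4 lower in Ter119pos by TMM (median −0.05), and 0 higher and 15 lower on total counts (median −0.94). Nsun4, a methyltransferase for the small ribosomal RNA, was lower in Ter119neg, with 3.12 ± 0.252 CPM in KO and 6.12 ± 0.288 CPM in WT (SD, n = 2 each; −0.97, edgeR adjusted p = 0.00141). Mettl15, which methylates the small ribosomal RNA as well, was lower in Ter119pos (−1.04 by TMM, −1.92 on total counts), in Ter119neg (−0.69, edgeR adjusted p = 0.0370) and, with the letter as a block, in LK cells (−0.92, edgeR adjusted p = 0.0263).

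For replication and nucleotide supply, 6 of 16 were higher and 3 lower in Ter119pos by TMM (median 0.10), and 2 higher and 9 lower on total counts (median −0.80). Slc25a36, a mitochondrial carrier of pyrimidine nucleotides, had 76.5 ± 7.22 CPM in Ter119pos KO and 16.1 ± 0.539 CPM in Ter119pos WT (SD, n = 2 each), and was called higher on both scales (2.25 and 1.35). It was higher in Ter119neg too (0.91 by TMM, 0.60 on total counts, called on both) and in LK cells with the letter as a block (1.06, edgeR adjusted p = 0.00894), where it was at 1.03 without the block (edgeR adjusted p = 0.109).

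The regulators of mitochondrial biogenesis had 2 of 8 higher and 5 lower in Ter119pos by TMM (median −0.67), and 0 higher and 5 lower on total counts (median −1.56). Nrf1, a transcription factor of nuclear respiratory genes, had 39.7 ± 0.265 CPM in Ter119pos KO and 93.9 ± 7.78 CPM in Ter119pos WT (SD, n = 2 each), and fell by 1.24 by TMM and by 2.13 on total counts. It was lower in Ter119neg as well (−0.37, edgeR adjusted p = 0.0261), as was Gabpa, another such factor (−0.33, edgeR adjusted p = 0.0344). Of the mitophagy genes, 3 of 9 were higher and 2 lower in Ter119pos by TMM (median 0.20) and 0 higher and 5 lower on total counts (median −0.69); Sqstm1, an autophagy receptor, was at 1.24 by TMM and 0.34 on total counts. No nuclear gene of these lists was called in all 3 KO against WT comparisons by the unpaired tests.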

How the data were processed

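RNA of 14 libraries was sequenced by the authors and deposited as 2 gene tables of RSEM expected counts (estimated counts that need not be whole), 1 for the 8 fetal liver and 1 for the 6 LK libraries. STAR 2.5.3, RSEM and GRCm38 are named in the submitters' processing notes; the annotation release is not given in the sources used here. Gene lengths, coordinates and sequences came from GENCODE M21 on GRCm38, in which 45143 of 45706 gene identifiers were found, and nuclear copies from blastn 2.17.0 (at least 100 aligned bases and 90% identity).

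Expected counts were rounded and fitted over all genes with edgeR 4.0.16 in R 4.3.3 (filterByExpr, TMM, quasi-likelihood test, Benjamini-Hochberg, called under 0.05), the fetal groups in 1 model and the LK groups in another; DESeq2 1.42.0 and limma 3.58.1 were alternatives. Every SD is over libraries, and tests were checked on simulated counts. For the length alternative, a lowess trend (span 0.3) on transcript length was taken out of each library. No label says that replicates of LK came from separate animals, so those p-values measure the spread between samples, which may be technical.

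Letters paired the LK libraries by the correlations given for them; in fetal liver the same letter gave 0.00472 and −0.0288, and the same mouse 0.155 and −0.0678, where the pairing comes from the mouse numbers in the labels. The members and gene lists were chosen with earlier results of these data known. Named were each member past the filter, and of each nuclear list members with the 3 smallest p in a comparison, with Slirp added beside Lrpprc. Total-count scaling, the added nuclear copies, scaling or shares without structural RNAs, scaling on nuclear protein-coding genes, and leaving out both letter B libraries were chosen after seeing the data.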

Additional observations from a re-analysis of the deposited data

Results flagged for a closer look

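For 5 protein genes the effect of Prmt5 loss differed between the 2 fetal fractions by the interaction test of edgeR, each more positive in Ter119pos than in Ter119neg by TMM. The log2 difference was 1.10 for mt-Atp6, 1.51 for mt-Co3, 1.37 for mt-Nd3, 0.59 for mt-Nd4 and 0.50 for mt-Nd6. On total counts the same differences were 0.48, 0.93, 0.74, −0.02 and −0.09, and of these mt-Co3 passed the test (edgeR adjusted p = 0.0125). The 2 comparisons use separate libraries of each genotype, and mice 1, 2 and 4 gave a library to both.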

How the results depend on the processing

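Of the counts of members called, that of Ter119pos KO against WT stayed within 1.5 times of 12 under every alternative except leaving out KO library B. The genes and directions changed as given for total counts and length. With the letter as a replicate block, LK calls numbered 8, also with the length trend removed or, with mt-Nd4l in place of mt-Co2, the copies added, against 1 by DESeq2. The Ter119neg count of 0 became 1 by DESeq2, 2 without a low count filter, 2 with the length trend removed and 1 on total counts. When single libraries were left out, mt-Tm was called without Ter119neg KO B. The interaction count of 5 became 10 by DESeq2, and 11 with no filter, scaled on nuclear genes, without rRNA rows or without globin genes. It became 9 with the letter as a block, 2 on total counts and 1 with the length trend removed. It also changed when single libraries were left out. The fetal letters did not pair the samples, and blocking on them gave 0 calls in Ter119neg, 12 in Ter119pos, 6 between WT fractions and 11 between KO fractions. Between WT fractions, total counts gave 12. The cause of these changes was not tested.

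Group means of shares moved with the denominator. The protein gene share was 1.07% in Ter119neg KO, 1.33% in Ter119neg WT and 0.658% in Ter119pos KO outside ribosomal RNA rows, and 0.695% in Ter119pos KO and 1.10% in Ter119pos WT outside globin genes, and 1.30% in Ter119neg KO, 1.44% in Ter119neg WT and 0.886% in Ter119pos KO (0.880% in Ter119pos WT) outside small structural RNAs. With mt-Rnr2 alone the ribosomal to messenger ratio was 19.4 in Ter119pos KO and 10.6 in Ter119neg WT. Against the median of the other 12 genes, mt-Nd6 per kilobase was 36.1% in LK KO, 35.6% in LK WT, 11.4% in Ter119neg KO, 13.4% in Ter119neg WT, 11.2% in Ter119pos KO and 12.8% in Ter119pos WT.

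Signs turned on total counts for these log2 values. In Ter119pos KO against WT they were −0.10 for mt-Rnr2, −0.63 for mt-Nd1, −0.39 for mt-Nd2, −0.082 for mt-Co2, −0.36 for mt-Nd4, −0.65 for mt-Nd5, −0.48 for mt-Nd6, −0.32 for mt-Cytb and −0.46 for mt-Nd4l, and with the length trend removed −2.53 for mt-Ts1, −0.77 for mt-Atp8, −0.42 for mt-Nd6 and −1.01 for mt-Nd4l. The interaction was −0.018 for mt-Nd4 and −0.094 for mt-Nd6 on total counts and −0.086 for mt-Nd6 with the length trend removed. Between WT fractions they were −1.02 for mt-Rnr1, −0.017 for mt-Rnr2, −1.15 for mt-Nd1, −0.44 for mt-Co2, −0.74 for mt-Atp8, −0.83 for mt-Atp6, −0.81 for mt-Co3, −1.03 for mt-Nd6, −0.90 for mt-Cytb and −0.96 for mt-Nd4l, and with the copies added −0.35 for mt-Nd4l. Between KO fractions they were −0.54 for mt-Rnr1, −0.16 for mt-Rnr2, −1.17 for mt-Nd1, −1.66 for mt-Nd2, −0.61 for mt-Co1, −1.34 for mt-Ts1, −0.19 for mt-Co2, −0.73 for mt-Atp8, −0.35 for mt-Atp6, −1.37 for mt-Nd3, −1.45 for mt-Nd4, −1.57 for mt-Nd5, −1.12 for mt-Nd6, −1.21 for mt-Cytb and −1.03 for mt-Nd4l. With the length trend removed, KO fractions had −1.57 for mt-Ts1, −0.42 for mt-Atp8, −0.76 for mt-Nd3, −0.28 for mt-Nd6 and −0.52 for mt-Nd4l, and with the copies added −0.15 for mt-Nd4l.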
